A study of Mus musculus with 6 samples.

Results

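Cholesterol genes were examined in RAW 264.7 cells, a mouse macrophage-like line, as 36 listed genes of sterol synthesis, its SREBP regulators, LXR-driven efflux, uptake and intracellular sterol handling. A gene was counted as measured when the platform annotation gave it as the only symbol of a probe, and 27 of the 36 were, among 13840 such genes on the array. Where a gene had several probes, the probe with the highest mean log2 intensity over the 6 samples was read. The other 9 genes (Acat2, Mvk, Fdps, Lss, Nsdhl, Srebf2, Lpl, Arl4c and Soat1) were not analysed here. Cells given 40 μM 15(S)-HETE, a hydroxylated product of arachidonic acid, and then at once 1 μg/mL LPS, a bacterial endotoxin, were called treated cells and set against cells given the same LPS alone. Both groups were harvested at 24 h, and each held 3 biological replicates of 6 pooled wells of 1 cell line. No vehicle is named for the LPS-only cells in the sources used here, and the serum share of the medium, a source of cholesterol, is given differently in the sample labels and in the study's methods.

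Cells make cholesterol from acetyl-CoA through mevalonate, squalene and lanosterol. The genes of this route are switched on by SREBP2, which its escort SCAP carries out of the endoplasmic reticulum when sterols are low and which INSIG proteins hold back when sterols are high. When oxysterols accumulate, the LXR nuclear receptors switch on the transporters and apolipoproteins that export cholesterol, so synthesis and efflux are usually set in opposite directions. In macrophages the efflux arm is known for limiting foam cell formation.

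Each probe gave 1 chemiluminescent intensity, quantile normalized by the authors, with an array median of 837 in a range of 46.2 to 3047298. Intensities were turned to log2 and compared by limma, with Benjamini-Hochberg adjustment over 33012 probes. A positive log2 fold change means a higher intensity with 15-HETE. Olfactory receptor genes, which macrophages are not known to use, served as a guide to dim signal. The mean intensity of 25 of the 27 genes lay above 1914, the 90th percentile of 747 olfactory receptor probes, and only Apoc1 and Apoc2 lay below it. Of the macrophage markers 7 of 7 measured genes lay above this level, against 2 of 6 fibroblast, 1 of 5 epithelial, 0 of 5 lymphocyte and 0 of 3 hepatocyte markers. With limma 0 genes of these lists were called, against 0.509% of all probes higher and 0.442% lower. With the intensity trend described later 1 macrophage marker was higher, against 3.87% of all probes. In the same fit 1 fibroblast and 1 epithelial marker were lower, against 4.96% of all probes, and nothing is read from these counts. LPS replicate 1 stood apart from the other LPS samples. It lay farthest from the median of its group for 18 of the 27 genes and for 47.3% of all probes, so values that it moved by over 1.5 times or turned in sign are given with and without it. The 15-HETE replicates were the tighter group for 21 of the 27 genes, against 48.8% of all probes. The share among probes as bright as these genes is not given here, so nothing is read from this count. Which arrays were processed together is not given in the sources used here, so treatment and array run cannot be told apart.

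The promoters of the genes were read first, because SREBP2 and LXR act there. Windows from 250 bases before to 50 bases after the annotated start were found for 20 of the 27 measured genes (RefSeq, GRCm38.p6). Motifs searched on both strands were the sterol response element TCACNCCAC, the LXR element GGTCA repeated after a spacer of 4 bases, the NF-Y box CCAAT and the E-box CACGTG. No match of 1 motif overlapped a match of another in the windows shown. A CCAAT box was present for 11 of 11 synthesis genes with a window, for 2 of 5 efflux genes and for 41.1% of all genes in the table. The sterol response element was found for 1 synthesis gene, Hmgcs1, against 1.44% of all genes. An E-box was found for 6 of the 20 genes, against 8.09%, and the LXR element for none of the 20, against 0.0518%. A missing match says only that these letters are not in this window. Other forms of the sterol response element and of the LXR element were not searched. The windows of Hmgcs1, Insig1, Msmo1 and Abca1 are shown, 5′ to 3′ with motif matches in capitals, since these genes stand for the 3 roles that the results turn on.
Hmgcs1, chr13:119690101-119690400, plus strand: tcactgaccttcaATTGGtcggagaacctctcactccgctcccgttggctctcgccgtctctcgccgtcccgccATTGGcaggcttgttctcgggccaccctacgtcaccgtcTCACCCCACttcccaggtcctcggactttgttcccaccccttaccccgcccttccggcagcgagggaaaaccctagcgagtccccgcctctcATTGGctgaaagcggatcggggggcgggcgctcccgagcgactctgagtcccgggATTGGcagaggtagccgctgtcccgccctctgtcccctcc
Insig1, chr5:28071162-28071461, plus strand: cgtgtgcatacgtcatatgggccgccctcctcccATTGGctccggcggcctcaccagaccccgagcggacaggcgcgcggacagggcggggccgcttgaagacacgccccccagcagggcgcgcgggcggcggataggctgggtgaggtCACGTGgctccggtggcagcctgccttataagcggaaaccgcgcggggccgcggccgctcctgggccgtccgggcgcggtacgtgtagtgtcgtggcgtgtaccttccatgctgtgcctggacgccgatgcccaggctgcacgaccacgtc
Msmo1, chr8:64733529-64733828, minus strand: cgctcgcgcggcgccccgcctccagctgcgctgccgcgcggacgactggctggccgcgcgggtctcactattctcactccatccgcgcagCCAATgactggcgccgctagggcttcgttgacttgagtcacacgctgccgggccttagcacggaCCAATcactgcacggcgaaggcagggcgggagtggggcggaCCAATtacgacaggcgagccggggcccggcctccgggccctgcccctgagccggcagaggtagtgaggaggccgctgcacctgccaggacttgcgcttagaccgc
Abca1, chr4:53159846-53160145, minus strand: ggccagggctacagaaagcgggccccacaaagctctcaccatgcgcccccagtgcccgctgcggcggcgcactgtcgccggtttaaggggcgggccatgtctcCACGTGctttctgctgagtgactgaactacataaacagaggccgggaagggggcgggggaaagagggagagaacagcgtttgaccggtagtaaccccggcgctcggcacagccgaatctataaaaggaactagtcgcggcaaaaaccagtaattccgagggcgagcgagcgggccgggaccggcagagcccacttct
Hmgcs1 holds the sterol response element 137 bases before the start and 4 CCAAT boxes. Insig1 has 1 CCAAT box and an E-box, and Msmo1 has 3 CCAAT boxes. Of the motifs searched, the Abca1 window matched only the E-box, and LXR elements with other letters were not looked for.

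At an adjusted p under 0.05 limma called 0 of the 27 genes in either direction, against 0.509% of all probes called higher and 0.442% called lower. These are 168 and 146 probes, or 178 and 75 when the arrays were centred on housekeeping genes. When the prior variance of limma was allowed to follow intensity (the intensity trend), 0 genes were higher and 3 lower, namely Insig1, Msmo1 and Fdft1, against 3.87% and 4.96% of all probes. At an unadjusted p under 0.05 there were 3 higher and 5 lower, 8 of 27, against 19.6% of all probes and 28.7% of the probes above the olfactory receptor level. Samples with and without 15-HETE were fully separated for 13 of the 27 genes (3 higher, 10 lower), against 30.0% of all probes and 51.7% of the brighter ones. When only the 12078 brighter probes were tested, 2 genes were higher (Tm7sf2 and Dhcr7) and 5 lower (Insig1, Msmo1, Fdft1, Apoe and Mylip), against 12.3% and 15.3% of these probes. Genes of the list were thus called about as often as other probes of their brightness. In these bulk samples a lower signal from fewer cells that express a gene and one from less RNA per cell cannot be told apart.

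**Figure D1:**
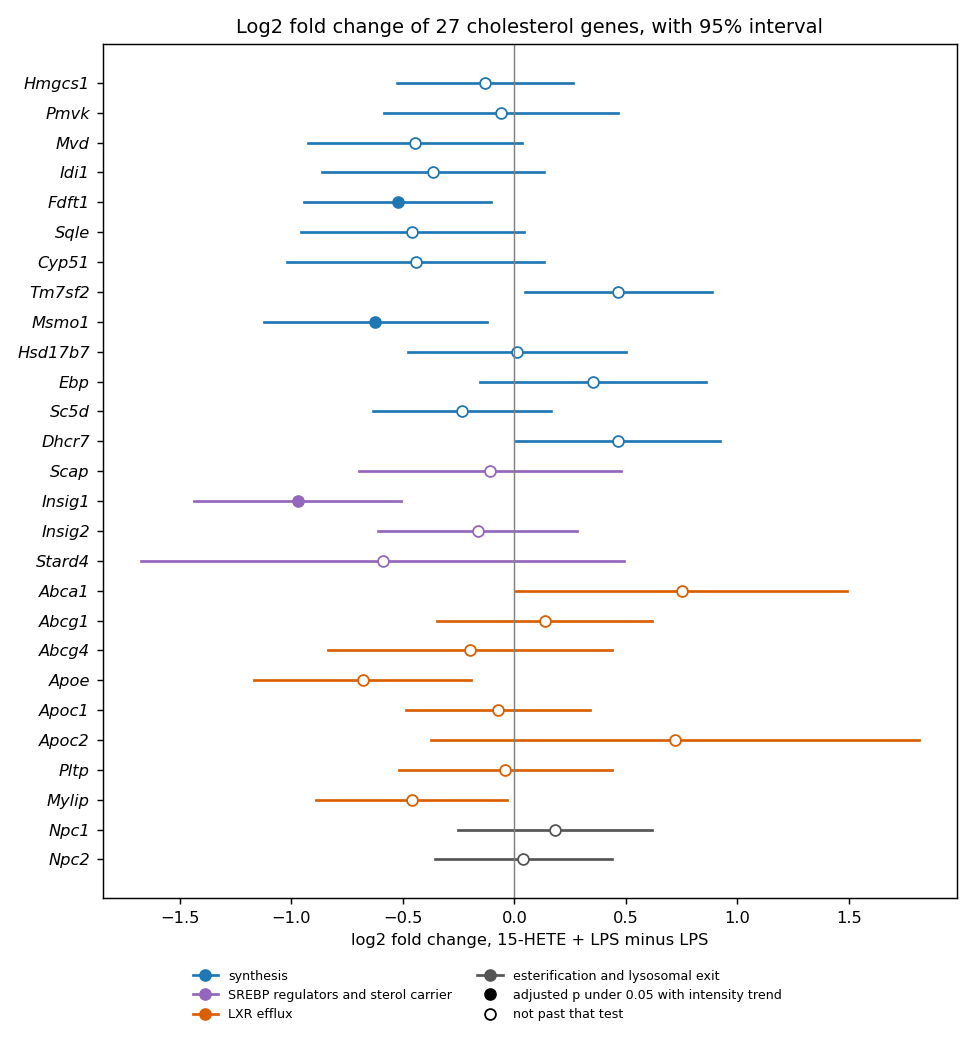
Log2 fold change (15-HETE + LPS minus LPS) of each of the 27 measured genes on the x axis, with its 95% interval from limma as a bar, grouped by role down the page and with synthesis genes in pathway order. Filled points are the 3 genes past an adjusted p of 0.05 with the intensity trend (Insig1 at -0.97, Msmo1 at -0.62 and Fdft1 at -0.52), and the other 24 are open.

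Insig1, the endoplasmic reticulum anchor that retains the SCAP-SREBP complex and is itself an SREBP target, had the lowest log2 fold change among the 27 genes. Its intensity was 29395, 27206 and 29500 in the 15-HETE + LPS replicates, against 51318, 66950 and 51733 in the LPS replicates. All treated samples thus lay below all LPS samples, at a fold of 0.510. The log2 difference was -0.97 ± 0.19 (SE, n = 3 each), with adjusted p = 0.0742 in limma and 0.00332 with the intensity trend. Without any single sample it stayed between -1.04 and -0.85, and with the intensity trend Insig1 was called in 6 of these 6 fits. Its relative Insig2, which also retains SCAP but is not an SREBP target, had 44826, 46334 and 42267 in treated cells and 43551, 56341 and 50263 in LPS cells, and the groups overlapped (log2 fold change -0.16, 95% interval -0.61 to 0.28, and -0.26 without LPS replicate 1). A dimmer Insig2 probe had 0.38 with overlapping groups, so the probes of this gene differed in sign.

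Scap, the escort of SREBP, had 47986, 49550 and 45825 in treated cells and 69288, 40971 and 48203 in LPS cells, with LPS replicate 1 as the highest sample. Its log2 fold change was -0.11 (95% interval -0.70 to 0.48) and 0.10 without LPS replicate 1. Stard4, a soluble sterol carrier and SREBP target, had 1749, 2706 and 4006 in treated cells and 2363, 5717 and 4787 in LPS cells, the widest spread of these regulators. The groups overlapped, the log2 fold change was -0.59 (95% interval -1.67 to 0.49) or -0.97 without LPS replicate 1, and a dimmer probe had -0.058.

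Of the 18 synthesis genes 13 were measured, and 9 had a log2 fold change below 0 and 4 above 0, with a median of -0.24 and quartiles of -0.45 and 0.012. Over all probes the median was 0.0073 and the quartiles -0.39 and 0.38. Limma called 0 of the 13, against 0.509% of all probes higher and 0.442% lower. The intensity trend gave 0 higher and 2 lower genes, against 3.87% and 4.96%. The samples were fully separated for 10 of the 13, 3 higher and 7 lower in treated cells, against 30.0% of all probes and 51.7% of the probes above the olfactory receptor level, where all 13 lie. Of 10 housekeeping genes measured, 7 were separated as well, 2 higher and 5 lower. The share among probes as bright as the synthesis genes is not given here, so nothing is read from this count. When the arrays were centred on housekeeping genes, the median of the synthesis genes was -0.15 and that of all probes 0.096.

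The steps up to squalene epoxide, in pathway order, are those of Hmgcs1, Pmvk, Mvd, Idi1, Fdft1 and Sqle. All 6 had a log2 fold change below 0 (5 of 6 with housekeeping centring, where Pmvk was at 0.027), and for 5 of the 6, all but Pmvk, each treated sample lay below each LPS sample, against 51.7% of the brighter probes separated in either direction. This stretch was set apart after its values were seen, and nothing is read from its count. Hmgcs1, the synthase that commits acetyl-CoA units to mevalonate, had 45058, 45441 and 44004 in treated cells and 51758, 47401 and 48182 in LPS cells. The gap was narrow, at a log2 fold change of -0.13 (95% interval -0.53 to 0.26, adjusted p = 0.699). Mvd, which decarboxylates mevalonate diphosphate, had 19196, 18399 and 18183 in treated cells and 30476, 24606 and 21665 in LPS cells. The LPS samples were the more scattered here, and the log2 fold change was -0.45 (adjusted p = 0.280) or -0.31 without LPS replicate 1. The phosphomevalonate kinase Pmvk had -0.061 (95% interval -0.59 to 0.46) with overlapping groups, -0.21 without LPS replicate 1 and 0.042 without LPS replicate 2. The isopentenyl diphosphate isomerase Idi1 had -0.37 (adjusted p = 0.386) and -0.30 at its dimmer probe, whose groups overlapped. Without LPS replicate 1 these Idi1 values were -0.24 and -0.022.

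Fdft1, squalene synthase, makes the first intermediate that serves sterols only. It had 40728, 43372 and 40282 in treated cells, against 65159, 59918 and 54154 in LPS cells. Every treated sample was lower, at -0.52 ± 0.17 on the log2 scale (SE), adjusted p = 0.176 in limma and 0.0234 with the intensity trend, and the value ran from -0.59 to -0.46 with 1 sample left out. Sqle, the squalene epoxidase that limits the rate of the later pathway, had 42353, 48144 and 41674 in treated cells, against 74258, 54622 and 54217 in LPS cells. LPS replicate 1 was the highest of the 6 samples by a wide margin. Its log2 value was -0.46 ± 0.21 (SE, adjusted p = 0.288 in limma), and -0.31 without that replicate.

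From lanosterol on, the 7 measured genes went both ways, with 3 log2 fold changes below 0 and 4 above 0 (median 0.012). Msmo1, the C4-methyl sterol oxidase, had 61801, 62762 and 63466 in treated cells, against 120818, 88461 and 84296 in LPS cells. The treated samples were close to each other and all lower, while LPS replicate 1 lay far above the other 2. The log2 difference came to -0.62 ± 0.21 (SE), with adjusted p = 0.176 in limma and 0.0308 with the intensity trend, and to -0.46 without LPS replicate 1. Cyp51, the lanosterol demethylase, had 17775, 14058 and 14075 in treated cells and 26731, 18849 and 17528 in LPS cells, and the groups overlapped by 1 treated sample (log2 fold change -0.44, adjusted p = 0.363, and -0.26 without LPS replicate 1). Sc5d, the sterol desaturase, had -0.24 (adjusted p = 0.475) with no overlap.

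Tm7sf2, a sterol C14 reductase, had 11645, 13418 and 11669 in treated cells, against 8446, 8725 and 9375 in LPS cells. Each treated sample was higher, by 0.47 ± 0.17 on the log2 scale (SE), with adjusted p = 0.214 in limma and 0.0578 with the intensity trend. Dhcr7, which catalyses a final step of the route, had 3821, 4624 and 3666 in treated cells, against 3206, 2750 and 2791 in LPS cells. Its samples did not overlap either, and it was also higher by 0.47 ± 0.19 (SE, adjusted p = 0.248 in limma). The sterol isomerase Ebp had 31163, 32620 and 30541 in treated cells and 19542, 28188 and 27070 in LPS cells, at 0.35 (adjusted p = 0.407) or 0.19 without LPS replicate 1. Hsd17b7, a 3-keto sterol reductase, was at 0.012 (95% interval -0.48 to 0.50) or -0.11 without LPS replicate 1. Tm7sf2, Dhcr7 and Ebp thus had values opposite in sign to those of Msmo1 and Fdft1, without passing limma on the whole array.

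**Figure D2:**
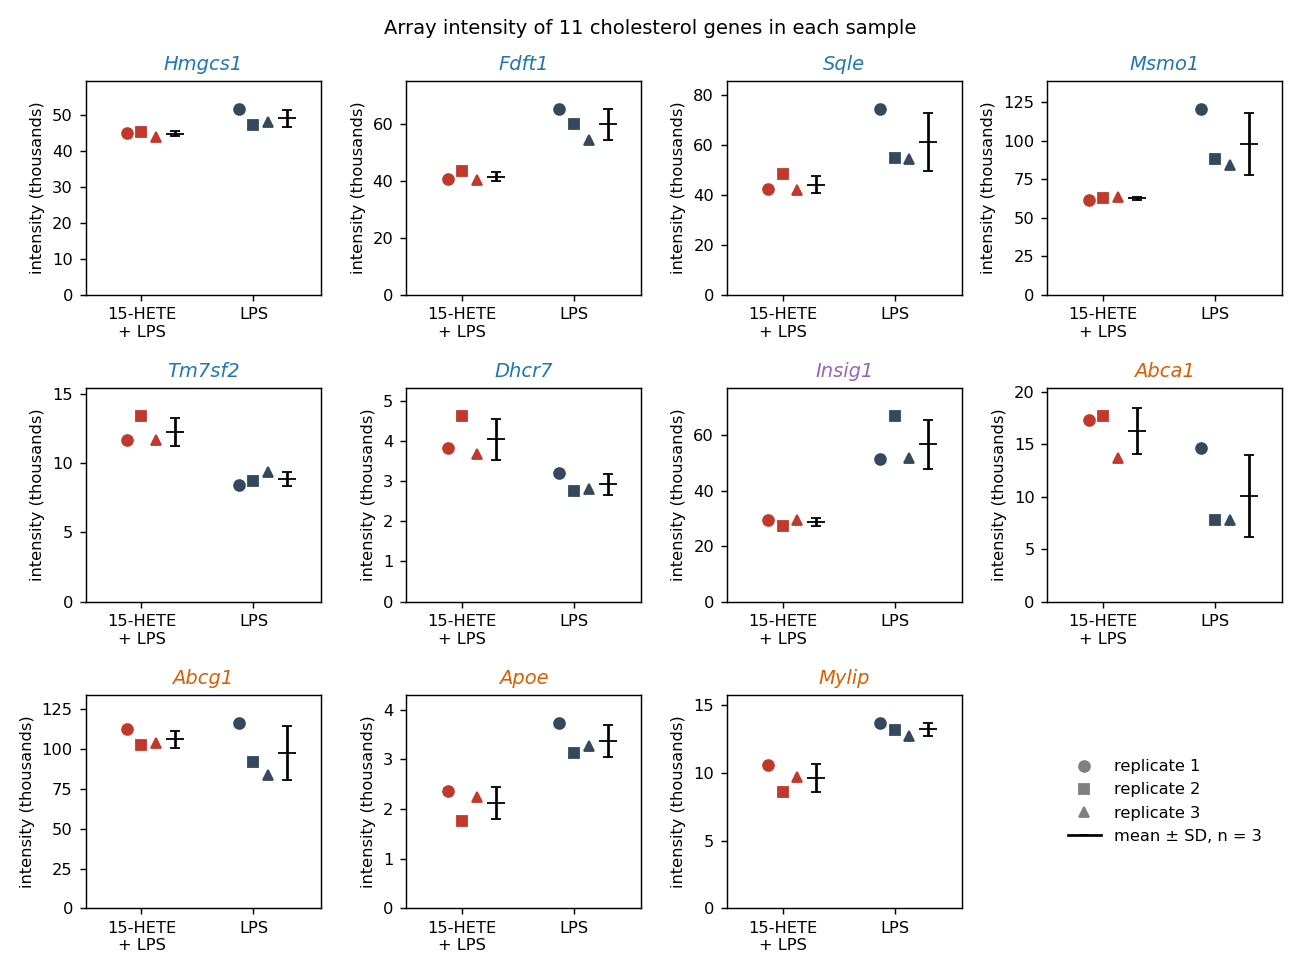
Array intensity divided by 1000 on the y axis, from 0, for 11 genes in the 3 samples of 15-HETE + LPS (left in each panel) and of LPS (right), with symbols for the replicate and the mean ± SD beside them. Insig1, Fdft1 and Msmo1 are lower in every treated sample, Tm7sf2 and Dhcr7 are higher in every treated sample, and for Abca1 and Abcg1 the circle of LPS replicate 1 lies among the treated samples or above them.

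Of the 10 LXR efflux genes 8 were measured, and 3 had a log2 fold change above 0 and 5 below 0, with a median of -0.057. Limma called 0 of the 8 with or without the intensity trend, with the shares of all probes as for synthesis. Samples were fully separated for 2 of the 8, Apoe and Mylip, against 30.0% of all probes and 51.7% of the brighter ones. Both were lower in every treated sample than in any LPS sample. Mylip is listed here as an LXR target, though it acts on the LDL receptor and so on uptake. The sign of the efflux median turned under several settings, from -0.13 without LPS replicate 2 to 0.048 with the mean over all probes of a gene.

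Abca1, which loads cholesterol onto lipid-poor apolipoprotein A-I, had 17316, 17717 and 13732 in treated cells, against 14618, 7814 and 7760 in LPS cells. The groups overlapped only through LPS replicate 1, which lay well above the other LPS samples. The log2 difference was 0.75 ± 0.31 (SE, 95% interval 0.0091 to 1.49), with adjusted p = 0.251 in limma and 0.0897 with the intensity trend. Without LPS replicate 1 it was 1.05, and with the intensity trend it was then called (adjusted p = 0.000406). In that fit 7.86% of all probes were called higher and 7.69% lower. LPS replicate 1 was singled out from these same data, so this call is no independent support. Abcg1, which exports cholesterol to HDL particles, had 112267, 102477 and 103400 in treated cells, against 116504, 91580 and 83895 in LPS cells. It overlapped through the same replicate, with a log2 fold change of 0.14 (95% interval -0.34 to 0.62) and 0.27 without it. For Abcg4, a sterol transporter known mainly from the brain, the log2 fold change was -0.20 at the brighter probe (-0.33 without LPS replicate 1) and 0.50 at the other, with overlapping groups at both.

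Apoe, the apolipoprotein that macrophages secrete with cholesterol, had 2352, 1752 and 2239 in treated cells, against 3739, 3117 and 3258 in LPS cells. All treated samples were lower, by a log2 difference of -0.68 ± 0.20 (SE), adjusted p = 0.145 in limma and 0.0879 with the intensity trend, and the value ran from -0.76 to -0.55 with 1 sample left out. The treated values of Apoe lay near the olfactory receptor level of 1914, with treated replicate 2 below it. Mylip, the ubiquitin ligase that LXR uses to send the LDL receptor to degradation, had 10570, 8572 and 9690 in treated cells, against 13691, 13167 and 12703 in LPS cells. It was likewise lower in every treated sample (-0.46 ± 0.18 SE on the log2 scale, adjusted p = 0.225 in limma, or 0.0627 with the intensity trend).

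The small apolipoproteins Apoc1 and Apoc2, which lie beside Apoe in a gene cluster, were dim. Apoc1 had a log2 fold change of -0.074 (95% interval -0.49 to 0.34) or -0.024 without LPS replicate 1. Apoc2, the activator of lipoprotein lipase, had 1922, 2723 and 1891 in treated cells and 666, 2088 and 1594 in LPS cells, with LPS replicate 1 as the lowest sample. Its value of 0.72 (95% interval -0.37 to 1.81) became 0.23 without that replicate. Pltp, which moves phospholipids between lipoproteins, had 93418, 99543 and 91761 in treated cells, against 118473, 88057 and 89048 in LPS cells, and lay at -0.041 (95% interval -0.52 to 0.44) or 0.099 without LPS replicate 1.

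Within the lysosome, NPC2 takes up freed cholesterol and hands it to NPC1 for export. Npc1 had 2684, 2512 and 2504 in treated cells and 2141, 2091 and 2588 in LPS cells (log2 fold change 0.18, 95% interval -0.25 to 0.62). Npc2 had 1470901, 1352856 and 1429883 in treated cells, against 1371889, 1427063 and 1338448 in LPS cells. The groups overlapped for both, and Npc2 had a log2 fold change of 0.040 (95% interval -0.36 to 0.44).

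The synthesis and efflux arms were then set side by side. Relative to the mean of the LPS samples, the median log2 value of the 13 synthesis genes was -0.18, -0.16 and -0.32 in the 15-HETE + LPS replicates, and 0.13, -0.042 and -0.060 in the LPS replicates. That of the 8 efflux genes was -0.057, 0.059 and -0.11 in treated cells and 0.13, -0.10 and -0.049 in LPS cells. The synthesis medians of the groups did not overlap, whereas the efflux medians did. The gap between the synthesis medians was narrow, at -0.16 against -0.060 for the nearest samples. Single probes were separated in 30.0% of cases, or 51.7% above the olfactory receptor level. The dim genes Apoc1 and Apoc2 were in the efflux list only. The median log2 fold change of the efflux genes exceeded that of the synthesis genes by 0.18, a difference of list medians for which no p is given because genes are not replicates. It stayed above 0 with any 1 sample left out, between 0.10 without LPS replicate 2 and 0.26 without LPS replicate 1. Each list held values of both signs. In synthesis they were below 0 for Msmo1 and Fdft1 and above 0 for Tm7sf2 and Dhcr7. In the LXR efflux list they were above 0 for Abca1 and below 0 for Apoe and for Mylip, which acts on uptake.

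**Figure D3:**
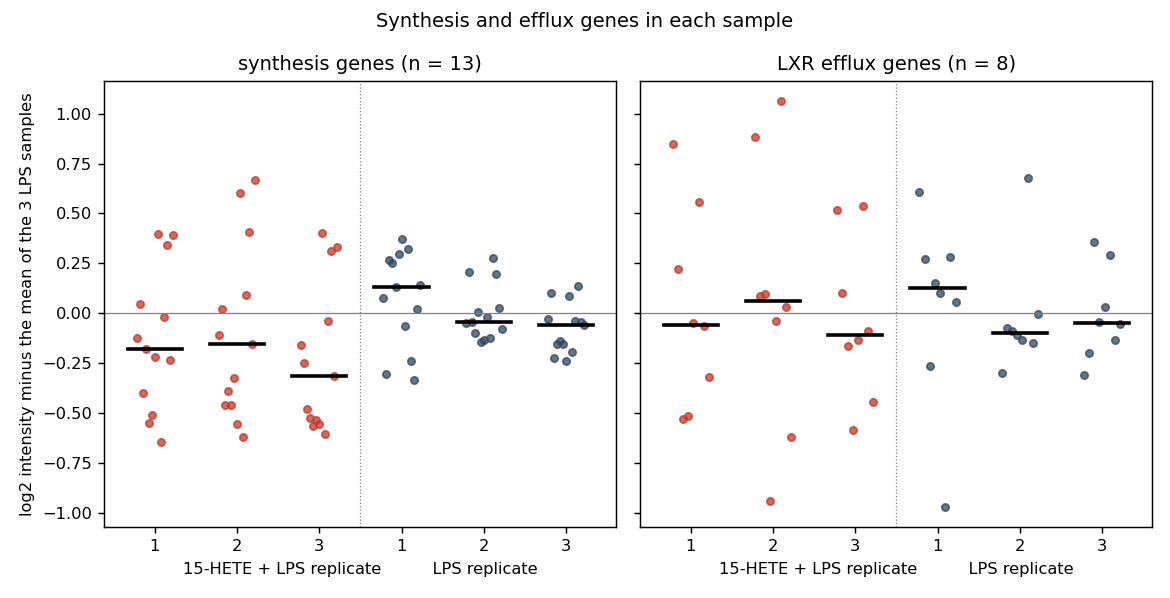
Log2 intensity of each synthesis gene (left, n = 13) and each LXR efflux gene (right, n = 8) minus its mean in the 3 LPS samples (y axis), by sample (x axis), with 15-HETE + LPS replicates in red left of the LPS replicates in dark blue and a black line at the median of the list. The synthesis medians are -0.18, -0.16 and -0.32 in treated samples, while the efflux medians of the groups overlap.

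Leaving out LPS replicate 1 moved the calls most. With the intensity trend, 3 genes were then higher (Abca1, Abcg1 and Tm7sf2) and 7 lower (Insig1, Msmo1, Fdft1, Sqle, Mvd, Mylip and Insig2), against 7.86% and 7.69% of all probes. In the trend fits with 1 sample left out, Msmo1 and Fdft1 were each called in 2 of 6. With any other sample left out the trend fit called 1 to 3 of the 27 genes, beside 1223 to 1562 of all 33012 probes. Without the intensity trend limma called 0 of the 27 genes, and 0 probes of the array, in each of these 6 fits. The part that LPS replicate 1 has in the spread was not tested beyond this.

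**Figure D4:**
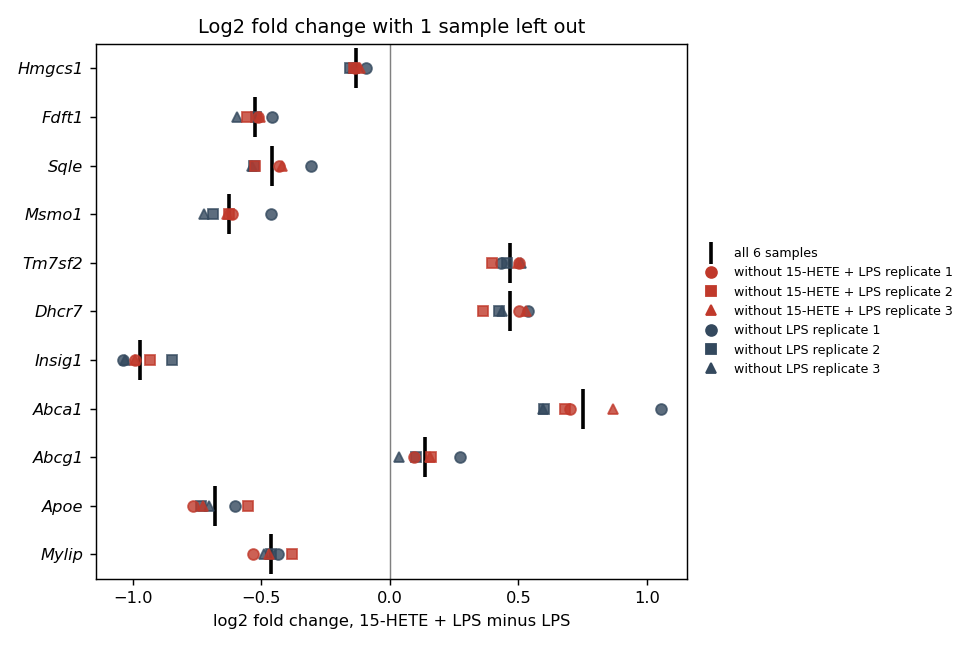
Log2 fold change (x axis, 15-HETE + LPS minus LPS) of 11 genes with all 6 samples (black bar) and with each sample left out in turn (symbols, red for a 15-HETE + LPS replicate and dark blue for an LPS replicate). Abca1 moves to 1.05 without LPS replicate 1, and no gene of the 11 changes sign.

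Of 31 other genes of cholesterol handling 20 were measured, and limma called 0 of them higher and 0 lower, against 0.509% and 0.442% of all probes. Their log2 fold change was above 0 for 15 and below 0 for 5, with a median of 0.13, against 0.0073 over all probes. The 2 with a synthesis role were both above 0. Ggps1 had 0.46 with no overlap, and Tmem97 had 0.037 with overlapping groups, or 0.0037 without LPS replicate 1. The trend fit called 3 of the 20 higher and 1 lower, against 3.87% and 4.96%. Nceh1, an esterase that frees cholesterol from stored esters, had 49154, 44826 and 42785 in treated cells, against 19861, 23113 and 24145 in LPS cells, with no overlap. This was a log2 difference of 1.03 ± 0.18 (SE), with adjusted p = 0.0618 in limma and 0.00184 with the intensity trend. Cyp27a1, which makes the LXR ligand 27-hydroxycholesterol, had 15927, 19503 and 15761 in treated cells, against 11306, 10637 and 11480 in LPS cells, higher by 0.61 on the log2 scale (adjusted p = 0.146 in limma, or 0.0222 with the trend).

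Lrp1, a large endocytic receptor that takes up apolipoprotein E particles, had 35814, 29656 and 28803 in treated cells, against 86262, 55143 and 52838 in LPS cells. All treated samples were lower (log2 fold change -1.01, adjusted p = 0.111 in limma, or 0.0119 with the trend). Lpcat3, an LXR target that remodels phospholipids, had 8544, 10720 and 9070 in treated cells, against 4504, 3327 and 2890 in LPS cells. Every treated sample was higher than every LPS sample (log2 fold change 1.42, adjusted p = 0.0571 in limma, or 0.00347 with the trend). Apoe and Mylip, also LXR targets, had log2 fold changes below 0 and passed neither of these fits. The part of LXR in these values was not tested. The LXR receptor gene Nr1h3 had a log2 fold change of 0.044 (95% interval -0.38 to 0.46), or 0.0035 without LPS replicate 1. Srebf1, the SREBP gene that LXR induces, had 0.19 (95% interval -0.36 to 0.73), or 0.38 without LPS replicate 1.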

How the data were processed

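Total RNA was labelled and hybridized to mouse genome survey arrays, 1 per sample. The values deposited by the authors are linear intensities, which were read on a chemiluminescent analyzer and quantile normalized before deposit. The sorted values of the 6 samples differed by at most 0.224%. Background correction is not given in the sources used here, and no S/N or flag filter was applied to the table.

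Intensities were turned to log2 with no offset. Gene names came from the annotation of the platform (14411 probes with 1 symbol). The comparison used limma 3.58.1 (R 4.3.3, two-sided, default prior), with Benjamini-Hochberg adjustment over all 33012 probes. Robust fits used statmod 1.5.0. The script was tested on simulated data. Named were all 36 listed genes and, of the other pathway genes, those past the test with or without the intensity trend. Nr1h3, Srebf1, Ggps1 and Tmem97 were added after their values were seen. Full detail was set for genes with an unadjusted p under 0.05 and for Abca1, Abcg1, Apoe, Hmgcs1 and Sqle, and the sample values of 10 more genes were printed to show their spread, a choice made after their values were seen. Members, lists and tests were chosen with earlier results of these data known.

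Same-numbered samples did not deviate together (correlations of -0.024 to 0.024), so replicate numbers were not used as pairs. Alternatives were another prior, the t-test of the methods, other scalings, an offset, filters on dim probes, array weights, a replicate block, the mean over probes and leaving out each sample. The number of arrays limits the precision.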

Additional observations from a re-analysis of the deposited data

How the results depend on the processing

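With all samples and limma's default prior, 0 of the 27 genes and 314 probes passed. The count was 3 genes and 2917 probes with the intensity trend, 3 and 2769 with its robust form, 3 and 2796 among probes above the median, 7 and 3338 among probes above the olfactory receptor level, and 1 and 1208 with array weights. An offset of 100 gave 0 genes and 703 probes, and the t-test of the methods 0 and 0 over all probes, or 0 and 88 over probes past the fold rule. With the replicate block 0 genes and 0 probes passed, which says nothing of single genes. Same-numbered samples did not pair. With 1 sample left out limma called 0 probes, and with the trend 1223 to 5135 probes, 1 to 10 of the 27 genes and 2 to 9 of the other pathway genes. Of these others, 4 passed with the trend, its robust form or above the median, 6 above the olfactory receptor level, 1 with housekeeping centring, 2 with the offset and 2 with array weights. The median of the synthesis genes stayed below 0 under every setting run, between -0.28 without 15-HETE + LPS replicate 2 and -0.15 with housekeeping centring, which moved the median of all probes to 0.096 and Hmgcs1 to -0.042. That of the efflux genes turned to 0.031 with housekeeping centring, 0.010 with array weights and 0.048 with the mean over probes, and ran from -0.13 to 0.038 (without LPS replicate 1) with 1 sample left out. Efflux minus synthesis was 0.12 among probes above the olfactory receptor level, 0.24 with array weights and 0.28 with the mean over probes, and 0.10 to 0.26 with 1 sample left out. The causes were not tested. Without S/N values, how far dim genes such as Apoc1 and Apoc2 lie above background is unknown.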
